A study of Mus musculus with 4 samples.

Results

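Mouse sperm small RNA held 12903 distinct sequences that the authors labelled piRNA, that matched the genome, that were 26 to 32 nt long and that did not begin with T, the letter that stands for U in the sequenced cDNA. They were selected by these 4 properties alone and joined by sequence over the 4 libraries. They made up 12.2% of the 105964 genome-matched piRNA-labelled sequences of that length and 0.801% of the 1611102 distinct sequences in the series. The other 93061 piRNA-labelled sequences began with T and are called T-first here.

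The study profiled sperm of male C57BL mice after varied daily stressors, a treatment meant to give depressive-like behaviour, and asked which short non-coding RNAs differ. The 2 control libraries (Ctrl) came from mice left undisturbed apart from feeding and cage care, and the 2 Mdd libraries from mice that met a changing stressor each day, such as a tilted or damp cage, restraint, isolation, noise or shifted light. No transgene, mutation or age is given. The protocols name sperm as the source of the RNA and a size selection of 18 to 40 nt, while the tissue and cell type fields name testis and testicular cells. Whether each library was a separate animal is not given.

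piRNAs are small RNAs that guide PIWI proteins, MILI and MIWI among them, in the male germ line, where they silence transposons and cleave transcripts. Most carry U at the 5′ end, because single-stranded precursors are cut before a U and PIWI proteins favour that base. In ping-pong amplification a U-first guide directs a cut of the opposite strand, so the new piRNA starts at any base, has A at position 10 and overlaps the guide by 10 nt on the opposite strand. Adult meiotic piRNAs arise mainly from long precursors without that cycle.

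Most of the sequences of highest mean level, 1 for each shared run of 20 first bases, are shown because the levels below turn on them. Capitals mark the first base and position 10, the place where a ping-pong product would carry A.
Sequence 1: GaccatttcActcagactgtaaccatgac
Sequence 2: CtctcgtgaAgccttgtttggcctccccag
Sequence 3: CtcttctgtAgtagttgattcttcccagg
Sequence 4: CaacttgagTtggattcccaagacccaca
Sequence 5: GccgtttgaCtctggatatcttagcattc
Sequence 6: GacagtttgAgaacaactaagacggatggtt
Sequence 8: AtggtggtgGcggtggtggtggtgagc
Sequence 9: AccaaagacCatgcctgggccagacct
Sequence 11: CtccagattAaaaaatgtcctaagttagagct
Of the 13 sequences named for their level, 5 had A at position 10.

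The libraries held 9706895 and 16763277 reads of 18 nt or longer in the Ctrl libraries and 23748630 and 23806805 in the Mdd libraries (values below run from Ctrl replicate 1 to Mdd replicate 2). Reads of 15 to 17 nt, below the selected size, were 24.4% and 26.95% of the Ctrl files and 1.18% and 1.27% of the Mdd files, so levels are given as CPM with reads of 18 nt or longer as the total. The median sequence studied here had 7, 12, 28 and 10 reads where it was read at all. Sequences with 1 read were 4.66%, 4.64%, 33.1% and 14.9% of those read in each library. Reads may not be separate molecules, which was not tested. Germ cell miRNAs (3 of 3 markers read in every library) summed to 1656, 1623, 2155 and 835 CPM. The 4 striated muscle miRNAs summed to 28.7, 1034, 12.5 and 3.91 CPM, the 3 stromal and vascular ones to 352, 1226, 375 and 228 CPM, and the 5 epithelial ones to 61.1, 272, 61.6 and 67.6 CPM, so Ctrl replicate 2 stood apart. The 6 blood miRNAs summed to 348, 103, 502 and 199 CPM, lowest in Ctrl replicate 2. Most of that sum was miR-451a, at 337, 88.2, 482 and 189 CPM. Of the 6, 1 was at 0 in Mdd replicate 1 and 2 were at 0 in Mdd replicate 2. Of the striated muscle miRNAs, 1 was at 0 in Mdd replicate 1. The 2 neural miRNAs summed to between 7.31 and 77.1 CPM. Mdd replicate 2 stood apart in its 3′ ends, described further on.

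Sequences without first-base T were a small fraction of each library, and whether their share separated the groups depended on the total used. Of reads of 18 nt or longer, they took 0.459% and 0.653% of Ctrl reads and 0.382% and 0.246% of Mdd reads. These groups did not overlap, at 0.556% ± 0.137 against 0.314% ± 0.0960 (SD, n = 2 each, exact two-sided permutation p = 0.333, the smallest that 2 against 2 samples allow; 0.479 after adjustment over 23 comparisons). Over all reads, which include the 15 to 17 nt reads that were more frequent in Ctrl, the shares were 0.347%, 0.477%, 0.377% and 0.243%. The groups then overlapped and the Mdd minus Ctrl difference went from -0.242 to -0.102 points. Over genome-matched reads they also overlapped, at 0.558%, 0.693%, 0.650% and 0.401%, a difference of -0.100 points. T-first reads behaved the same, at 5.51%, 7.94%, 4.54% and 2.39% of reads of 18 nt or longer and 4.16%, 5.80%, 4.49% and 2.36% of all reads. CPM levels below use the first total. In bulk RNA, fewer cells of a type and less RNA per cell cannot be told apart. The part of the marker differences in these levels was not tested.

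Among genome-matched piRNA-labelled reads, the share without first-base T was similar in 3 libraries and higher in the fourth. It was 7.70% and 7.60% in Ctrl and 7.75% and 9.32% in Mdd. Counting each distinct sequence once gave 9.76%, 10.25%, 9.83% and 11.05%, so these sequences had fewer reads each than T-first ones. The remaining bases were used about equally: 4159 sequences began with A, 4544 with C and 4200 with G. By reads, A took between 28.6% and 30.01%, C between 34.0% and 37.4% and G between 33.6% and 37.4% of a library.

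Few of these sequences recurred between libraries. In all, 83.9% were read in 1 library only, and 292 were read in all 4 yet held 30.7% of the reads. Of T-first sequences, 68.5% were read in 1 library. The 100 most read sequences held 24.9% of the reads, against 10.5% for the 100 most read T-first sequences. Sharing the first 20 bases joined the 12903 sequences into 10549 5′ ends, of which 9028 had a single sequence and the largest had 16.

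**Figure D1:**
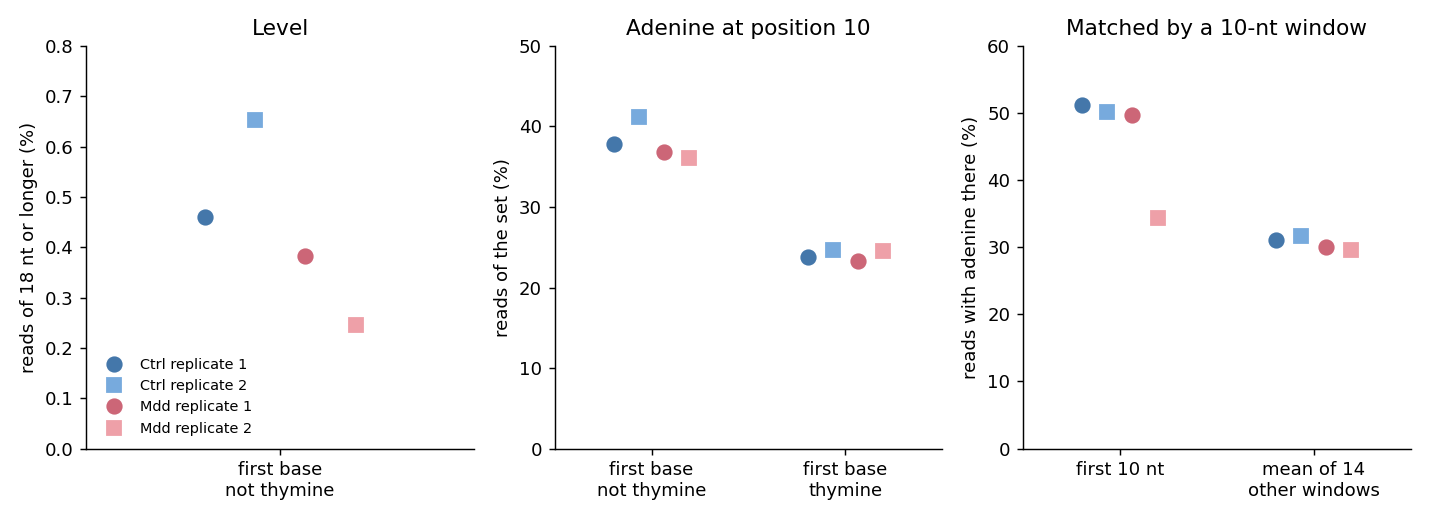
Measures of piRNA-labelled sequences without first-base thymine, 1 point per library (2 Ctrl, 2 Mdd): their percentage of reads of 18 nt or longer, the percentage of reads with adenine at position 10 beside that of first-base-thymine sequences, and, among reads with adenine there, the percentage whose window is complementary to the first 10 nt of a first-base-thymine sequence. Every library has more adenine at position 10 without first-base thymine, between 36.1% and 41.2%, and Mdd replicate 2 has the lowest point of this set in all 3 panels.

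Adenine at position 10 was more frequent than in T-first sequences in every library. It was found in 37.9% and 41.2% of Ctrl reads and 36.9% and 36.1% of Mdd reads, against 23.8%, 24.7%, 23.3% and 24.5% of T-first reads. The excess was 14.02, 16.5, 13.6 and 11.6 percentage points, 13.9 ± 2.01 (SD, n = 4 libraries), in 4 of 4 libraries (exact two-sided sign-flip permutation p = 0.125, the smallest that 4 libraries allow, 0.125 after adjustment). Sequence 1 alone carried part of it. Without it the shares were 33.4%, 36.1%, 33.1% and 34.2% and the excess 9.58, 11.4, 9.75 and 9.70 points. With each distinct sequence counted once, the excess was 7.81 ± 0.527 points, again in 4 of 4 libraries.

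The excess lay at position 10 and not beside it. Over the 12903 distinct sequences, A made up 21.4% of position 9, 31.5% of position 10 and 24.01% of position 11, against 22.8%, 24.8% and 23.4% in T-first sequences. At positions 2 and 4 A was also more frequent than in T-first sequences (35.3% against 28.3%, and 30.7% against 26.9%), and at position 5 it was less frequent (32.3% against 36.6%).

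**Figure D2:**
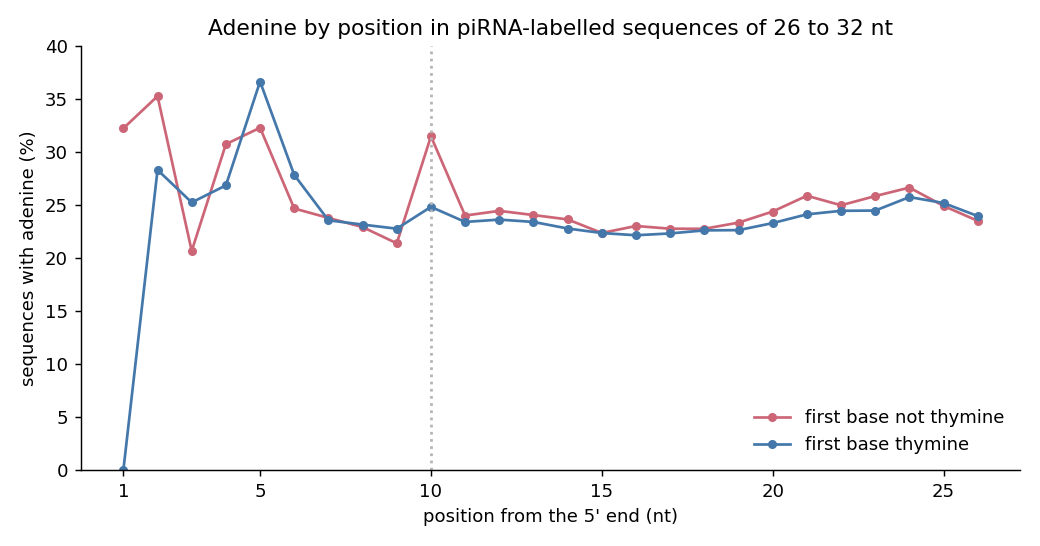
Percentage of distinct sequences with adenine at each position from the 5′ end, for the 12903 sequences without first-base thymine and the 93061 with it. The first set has 21.4%, 31.5% and 24.01% at positions 9, 10 and 11, and the second 22.8%, 24.8% and 23.4%. The first set is higher than at position 10 at positions 2 (35.3%) and 5 (32.3%).

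Longer and more widely read sequences had A at position 10 more often. The share was 25.8% of the 2197 sequences of 26 nt, 34.8% of the 2535 of 30 nt and 38.2% of the 338 of 32 nt, while T-first sequences stayed between 22.6% and 26.5%. It was 31.1% among sequences of 1 library and 39.4% among the 292 of all 4 libraries, and T-first sequences went the other way, from 25.4% to 21.4%. Among sequences with at least 100 reads in total, 40.4% of 324 had it. These shares describe sequences of the same libraries and carry no test.

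Mdd libraries had slightly lower shares of A at position 10 than Ctrl, with no overlap (39.5% ± 2.34 against 36.5% ± 0.533, SD, n = 2 each, exact permutation p = 0.333, adjusted 0.479). The difference of -3.01 points was smaller than that between these and T-first reads in any library. Without Sequence 1 the groups overlapped.

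The first 10 bases matched a T-first sequence on the opposite strand more often than other windows of the same sequences did. Among the 4062 sequences with A at position 10, 37.7% had first 10 bases that were the reverse complement of the first 10 bases of a T-first sequence. The same search in the 14 windows starting at positions 2 to 15, each among sequences with A at the window's last base, gave between 26.7% and 30.3%, mean 28.6%. A match of 10 bases is therefore mostly what any window of these sequences gives. With partners limited to the 5882 T-first sequences of at least 100 reads, 5.88% of the first windows matched, against between 1.88% and 3.15% of the others. T-first sequences with A at position 10 had a smaller excess, at 32.4% against a mean of 28.1%.

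By reads the overlap was 51.2%, 50.1%, 49.8% and 34.4% of reads with A at position 10, against means of 31.1%, 31.6%, 30.03% and 29.7% in the other windows. T-first partners were pooled over the 4 libraries, so a partner need not have been read in the same library. Over all reads of the set, with or without A at position 10, the overlap was found in 19.4%, 20.6%, 18.4% and 12.4%. The excess among reads with A at position 10, of 20.04, 18.5, 19.75 and 4.73 points was positive in 4 of 4 libraries (exact sign-flip permutation p = 0.125, the smallest possible, 0.125 after adjustment). Sequence 1 weighed on both sides, since it matched in the first window and in others, where shares by reads reached 48.4%, 50.1%, 44.2% and 42.9%. Without Sequence 1 the first window gave 40.7%, 38.1%, 40.6% and 28.7%, and the highest other window 35.7%, 33.1%, 31.3% and 34.7%. The first window was then above all others in Ctrl replicates 1 and 2 and Mdd replicate 1, and within their range in Mdd replicate 2. The T-first match of highest mean level is shown for 3 of the named sequences, with the complementary bases in capitals.
Sequence 1: GACCATTTCActcagactgtaaccatgac
T-first match of Sequence 1: TGAAATGGTCtggttgagagaggtgaggc
Sequence 11: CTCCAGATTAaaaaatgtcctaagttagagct
T-first match of Sequence 11: TAATCTGGAGaaaagtcatggtgtcagt
Sequence 16: ATGCATTGTAggatgattggcactatc
T-first match of Sequence 16: TACAATGCATtcgacagtcagccgccctct
The match of Sequence 1 had 13, 57, 59 and 16 reads, far below the 2975, 8725, 5154 and 1692 reads of Sequence 1 itself. The match of Sequence 16 had 128, 164, 419 and 84 reads, against 22, 254, 121 and 39 for Sequence 16. Whether such matches lie at 1 place in the genome is not shown by the letters, since most of these sequences have no annotated site. Sequence 1 has an annotated site, opposite 5330409N07Rik. Of the 63 sequences of the set on that strand, 0 were in a 10-nt pair placed on the genome.

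**Figure D3:**
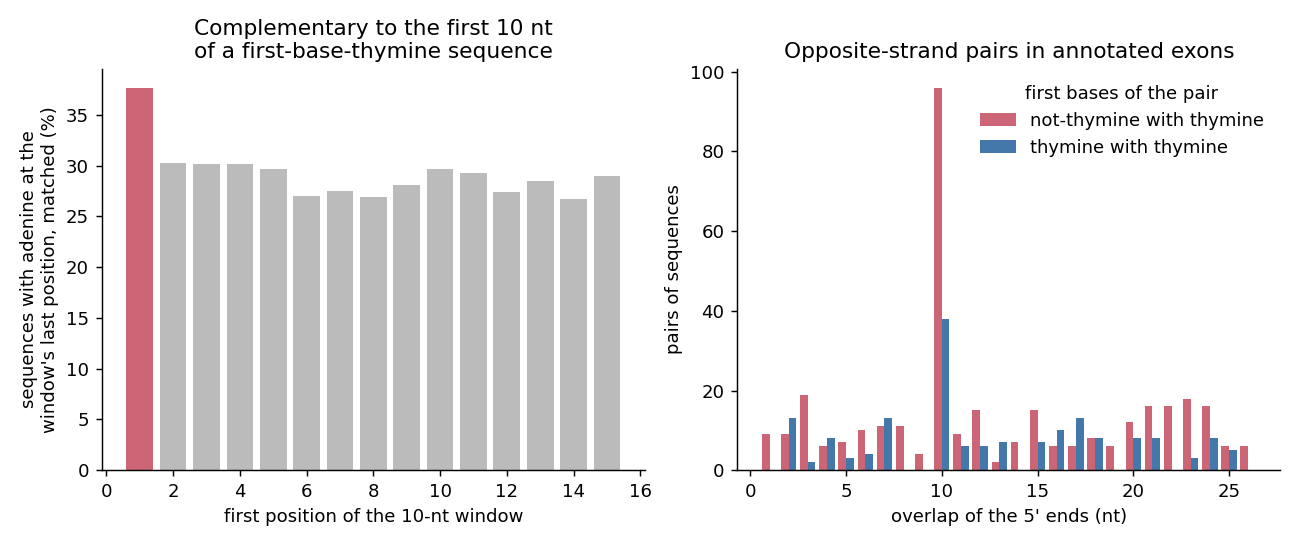
Left, percentage of sequences without first-base thymine whose 10-nt window is complementary to the first 10 nt of a first-base-thymine sequence, by the window's first position, among sequences with adenine at the window's last position. Right, number of pairs of sequences on opposite strands of annotated exons by the overlap of their 5′ ends. The first window gives 37.7%, above the 26.7% to 30.3% of the others, and pairs peak at an overlap of 10 nt.

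Where both strands could be placed, the 10-nt overlap stood out plainly. Exact matches to GENCODE M21 transcripts (mouse build GRCm38) gave 2928 of the sequences a site within 1 exon. Pairs with a T-first sequence on the opposite strand numbered 96 at an overlap of 10 nt, against between 2 and 19, median 9, at the 25 other overlaps from 1 to 26 nt. T-first sequences paired with each other 38 times at 10 nt and between 0 and 13 times elsewhere. The 96 pairs involved 46 sequences with 37 different 5′ ends. A pair found at several sites counts once per overlap, while forms with different 3′ ends count as separate pairs. Sequences were pooled over the 4 libraries, so the 2 sequences of a pair need not share a library, as in Pair 16 below. A at position 10 follows from the partner's first T, so it is no further observation.

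CT025671.4, a long intergenic non-coding RNA gene at chr17:66193352-66199820 on the plus strand, held 11 of the 37 paired 5′ ends. Its strands differed in their first bases. On the sense strand 23 of 32 sequences lacked first-base T, 22 of the 23 had A at position 10 and 15 were in 10-nt pairs. On the antisense strand 31 of 283 sequences lacked first-base T (10.95%). The sense sequences without first-base T had 6.49, 9.84, 10.6 and 3.91 CPM in all, and the antisense T-first ones 105, 132, 85.6 and 38.6 CPM. Mdd replicate 2 was lowest for both, and the Ctrl and Mdd values of the sense sequences overlapped. Examples from this gene follow, each overlapping by the bases in capitals.
Pair 2, chr17:66195389-66195418, plus strand: ACACAGTGCAttgagtagctagccttctgt
Pair 2 T-first partner, chr17:66195368-66195398, minus strand: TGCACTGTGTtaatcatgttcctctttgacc
Pair 3, chr17:66194885-66194916, plus strand: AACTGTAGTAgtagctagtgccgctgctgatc
Pair 3 T-first partner, chr17:66194865-66194894, minus strand: TACTACAGTTcaaagtgagagagttcaaga
Pair 5, chr17:66196272-66196302, plus strand: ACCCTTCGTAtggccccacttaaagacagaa
Pair 5 T-first partner, chr17:66196253-66196281, minus strand: TACGAAGGGTgatctgaagagacagacag
All lie in exons with no coding sequence. The sequence of Pair 2 had 22, 23, 53 and 2 reads and its partner 0, 35, 27 and 0. That of Pair 3 had 11, 30, 43 and 19 reads and its partner 7, 35, 1 and 0. That of Pair 5 was read only in Mdd, with 64 and 7 reads, as was its partner, with 88 and 1. Over the 37 paired 5′ ends, the sequence without first-base T had the higher mean level in 16.

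Gm42811 and Stox1 repeated the arrangement on a smaller scale. Gm42811, an annotated transcript on the minus strand at chr6:127807951-127810718, had 5 sequences without first-base T among 7 in sense and 48 among 378 in antisense, and 3 of the 5 were in 10-nt pairs. The sense side of Stox1, which encodes a winged-helix DNA-binding protein, had 6 among 10, 3 of them in such pairs, and its antisense side 26 among 299. Both pairs shown lie on single exons, the second in the coding sequence of Stox1.
Pair 7, chr6:127809463-127809490, minus strand: CTTTTTCCTAgaagccacatgtcctcat
Pair 7 T-first partner, chr6:127809481-127809508, plus strand: TAGGAAAAAGagaggcttgtgggtcttc
Pair 16, chr10:62665040-62665066, minus strand: GACGATTTCAgaggtggcccaggaaat
Pair 16 T-first partner, chr10:62665057-62665085, plus strand: TGAAATCGTCgctgactgggtggacagga
Their reads were few: 2, 31, 0 and 11 for Pair 7 and 19, 0, 0 and 0 for its partner, 8, 0, 0 and 0 for Pair 16 and 0, 0, 0 and 109 for its partner.

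Most of the set also lay close to a T-first 5′ end on the same strand. A T-first sequence of any library with a 5′ end 1 to 5 nt away was sought by an exact match of 20 bases. It existed for 58.7% of the sequences and for 65.2%, 67.2%, 65.5% and 59.4% of their reads. T-first sequences had such a T-first neighbour in 62.1% of cases, and these held 75.6%, 74.7%, 76.5% and 71.4% of T-first reads, a higher share than here in every library. The most common distance was 1 nt inside the T-first sequence, which is that sequence less its first base at the 5′ end: 20.03% of the sequences, holding 26.6%, 28.1%, 25.8% and 23.6% of the reads, against 13.2% of T-first sequences. Of the 2017 5′ ends at that distance, 81.1% had fewer reads than their T-first neighbour, and together they had 10.3% of its reads.

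Sequence 1 was the reverse of that ratio. It begins 1 nt inside a T-first sequence and outnumbered it in every library, and Sequence 25 shows the usual order. Capitals in the T-first sequences mark the bases that come before the other 5′ end, and in Sequence 25 the first base and position 10.
T-first neighbour of Sequence 1: Tgaccatttcactcagactgtaaccatgac
T-first neighbour of Sequence 4: TGAcaacttgagttggattcccaagaccca
T-first neighbour of Sequence 25: Tgctataccatgtgatcctaaagggaaac
Sequence 25: GctataccaTgtgatcctaaagggaaac
The neighbour of Sequence 1 had 352, 696, 623 and 173 reads, against 2975, 8725, 5154 and 1692. The neighbour of Sequence 25 had 152, 376, 218 and 61 reads, against 5, 10, 0 and 0. Sequence 4, with 375, 783, 525 and 490 reads, exceeded its neighbour, with 120, 305, 636 and 163, in 3 of 4 libraries. Of the 13 sequences named for their level, 8 had a T-first neighbour within 5 nt.

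Sequences with and without such a neighbour differed in their A at position 10. It was present in 28.96% of the 7569 sequences with a neighbour and in 35.1% of the 5334 without one. The 10-nt overlap was found in 34.2% of the former with A at position 10 (other windows 27.6%) and in 41.8% of the latter (other windows 29.9%). By reads the order of A at position 10 turned, at 40.5%, 43.1%, 37.2% and 37.9% with a neighbour and 33.01%, 37.3%, 36.25% and 33.6% without. With Sequence 1 left out, the first 4 shares were 33.7%, 35.4%, 31.3% and 34.7%, so the order differed between libraries.

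The sequences were shorter than T-first ones in every library, and their mean was lower in both Mdd libraries than in Ctrl. Their reads averaged 28.80 and 28.81 nt in Ctrl and 28.60 and 28.56 nt in Mdd, a difference of -0.377 ± 0.0741 nt (SD, n = 4 libraries) from T-first reads, shorter in 4 of 4 libraries (exact sign-flip permutation p = 0.125, adjusted 0.125). Reads of 26 to 28 nt, the size usual for piRNAs bound to MILI, were 37.1% and 35.0% in Ctrl and 41.7% and 43.8% in Mdd (36.0% ± 1.47 against 42.8% ± 1.51, SD, n = 2 each, exact permutation p = 0.333, adjusted 0.479). T-first reads of 26 to 28 nt moved in the same order with a smaller gap, at 27.98%, 27.9%, 31.2% and 30.6%. GC content was 47.7%, 47.5%, 49.2% and 51.9%, and 44.9%, 44.9%, 46.3% and 47.9% in T-first reads. Just outside the length limits, 2104 sequences of 25 nt without first-base T had 51792 reads and 104 of 33 nt had 8894, against 2197 with 42793 reads at 26 nt and 338 with 7676 at 32 nt.

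Mdd replicate 2 differed from the other libraries at the 3′ end. Its reads ended in G in 33.5% of cases, against 15.2%, 17.6% and 17.0% in the others, and in AGG in 13.2%, against 2.24%, 3.78% and 2.31%. T-first reads showed the same, with 27.2% ending in G against 14.4%, 16.1% and 15.02%. Reads ending in TGG were nearly missing everywhere, at up to 0.0495% of reads, while TGG 1 base further in was at between 1.78% and 2.48%. Distinct sequences ending in G were 16.1%, 16.8%, 18.3% and 19.0%, a much smaller difference. The part of these ends in the levels and overlap of Mdd replicate 2 was not tested.

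**Figure D4:**
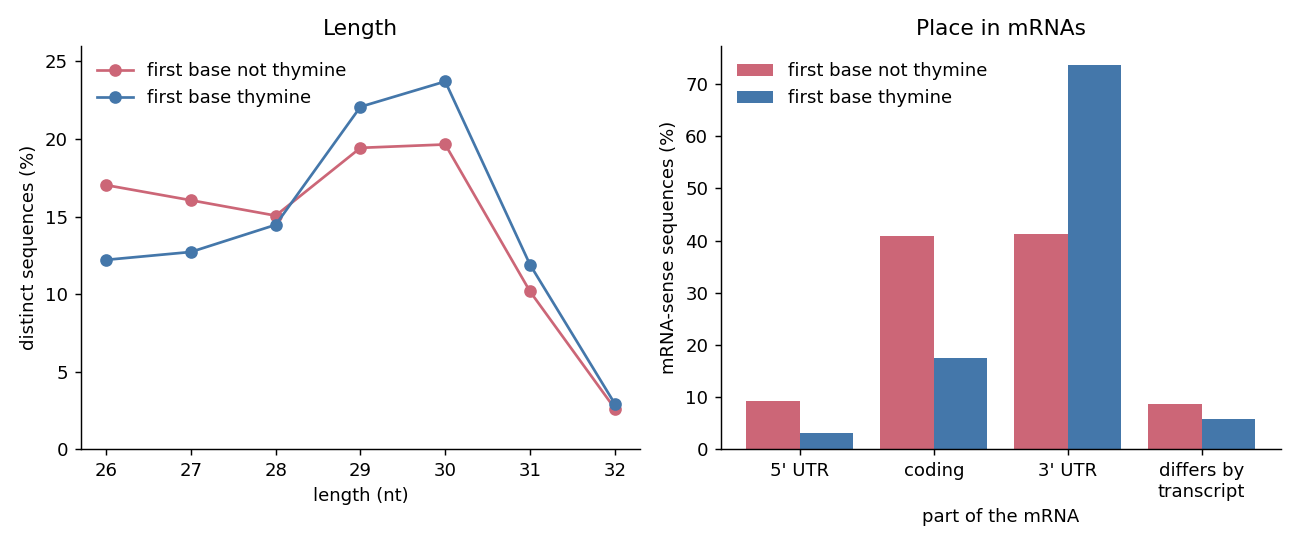
Left, percentage of distinct sequences at each length from 26 to 32 nt. Right, for sequences in sense to mRNAs, percentage in each part of the mRNA. Sequences without first-base thymine have 17.0% at 26 nt against 12.2%, and lie in coding sequence in 40.9% of mRNA cases against 17.4%.

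Annotated exons held more of these sequences than of T-first ones, and in other parts of mRNAs. An exact transcript match was found for 2939 (22.8%), against 14.9% of T-first sequences. Sense matches to mRNAs were 12.4% against 6.91%. In mRNAs, 40.9% of the 1600 lay in coding sequence, 9.31% in 5′ UTRs and 41.2% in 3′ UTRs, against 17.4%, 3.13% and 73.6% of the 6426 T-first sequences. Genic piRNAs of the mouse testis are known to come mostly from 3′ UTRs. Antisense-only matches were 3.91% and 3.63% of the sets. By reads they were 10.06%, 11.5%, 8.40% and 6.19% of reads without first-base T, which include those of Sequence 1, and 3.58%, 3.60%, 3.39% and 3.03% of T-first reads. By reads, sense mRNA matches were 8.43%, 8.21%, 9.05% and 13.5% of a library's reads without first-base T and between 3.62% and 3.94% of its T-first reads.

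Genes with many piRNA-labelled sequences mostly had a like, low share without first-base T. Among the 104 gene and orientation pairs with at least 20 sequences, the median share was 9.70%, 95 pairs were under 20% and 5 were over 50%. Gm49794, a long intergenic non-coding RNA gene at chr17:27354111-27367492, had the most, 86 of 817 in sense (10.5%), and Gm5878 had 59 of 453 (13.0%). The genes over 50% were Smcp, which encodes a cysteine-rich protein of the sperm mitochondrial capsule, at 85.7%, Odf1, an outer dense fibre protein of the sperm tail, at 82.8%, Prm2, a protamine that packs sperm DNA, at 73.9%, the sense side of CT025671.4 at 71.9% and Gm43305 at 71.4%. In these 5 genes together 65.1% of the 109 sequences were 26 to 28 nt long, against 41.0% of the 1061 in the other 99 pairs. The sense side of CT025671.4 did not share this, at 6 of 23. Smcp had 22 of 30 at that length, Odf1 16 of 24, Prm2 14 of 17 and Gm43305 13 of 15. The T-first sequences of the 5 genes together were also short, with 80.6% of 31 at 26 to 28 nt against 38.5% of 9322. One sequence of each of the 3 spermatid mRNAs shows what such sequences look like, with the first base and position 10 in capitals.
Smcp, 5′ UTR, chr3:92588958-92588984, minus strand: GacttctgaTagccatggactcactag
Odf1, coding sequence, chr15:38226157-38226183, plus strand: AattctggcCtcgtcttgctgcagcag
Prm2, coding sequence, chr16:10791906-10791931, minus strand: GcgaggagcAggggcaggggcaaggg
Smcp sequences without first-base T had 38, 168, 147 and 136 reads in all and Odf1 sequences 28, 169, 335 and 54. Prm2 sequences had 19, 51, 92 and 794 reads, so Mdd replicate 2 held most of them, and the Prm2 sequence shown had 0, 0, 1 and 430. It ends in GGG.

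Sequence 1 had 1 exact transcript site, on the antisense strand, and sites outside annotated exons were not analysed here. The site is at chr12:98447235-98447263 on the plus strand, opposite an exon of 5330409N07Rik, a minus-strand transcript of unknown function at chr12:98444817-98448334. That strand held 63 of these sequences and 330 T-first ones, so 16.03% lacked first-base T. The 63 together had 358, 597, 246 and 90.4 CPM and the T-first ones 268, 405, 176 and 88.1 CPM. Both sums were lower in both Mdd libraries, and Sequence 1 made up most of the first. No other sequence of the 13 named for their level had an exact transcript match.

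Single sequences varied widely between replicates. Sequence 1 had 306 and 520 CPM in Ctrl and 217 and 71.1 CPM in Mdd (413 ± 151 against 144 ± 103, SD, n = 2 each), a log2 fold change of -1.33 (SE 0.82, edgeR quasi-likelihood adjusted p = 0.790). It was 6.67%, 7.98%, 5.69% and 2.89% of the reads of the set. Sequence 4 had 38.6 and 46.7 CPM in Ctrl and 22.1 and 20.6 in Mdd, the tightest replicates of the 4 most read, with a log2 fold change of -0.61 (SE 0.67, edgeR adjusted p = 0.9999). Sequence 2, at 19.6, 66.3, 28.6 and 22.2 CPM, and Sequence 3, at 19.8, 50.8, 16.3 and 41.9 CPM, overlapped between groups. Sequence 9 had its highest level in Mdd replicate 1 and its lowest in Mdd replicate 2, at 24.6, 8.11, 35.8 and 1.26 CPM. Sequence 11 had the lowest p of those named for their level, with 29.4 and 24.9 CPM in Ctrl, 5.94 and 2.18 CPM in Mdd and a log2 fold change of -2.52 (SE 0.75, edgeR adjusted p = 0.287). Sequence 12 had 48.3, 7.70, 3.66 and 2.44 CPM, so 1 Ctrl library set its mean. Of the 13 sequences named for their level, 10 were lower in both Mdd libraries than in both Ctrl libraries, with log2 fold changes from -2.86 to -0.61 and edgeR adjusted p from 0.287 to 0.9999, and 3 overlapped. Of all tested sequences 30.3% were lower in both Mdd libraries, and of T-first ones 42.6%. None passed the threshold of 0.05, and in 10 of the 13 Mdd replicate 2 was the lowest library.

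**Figure D5:**
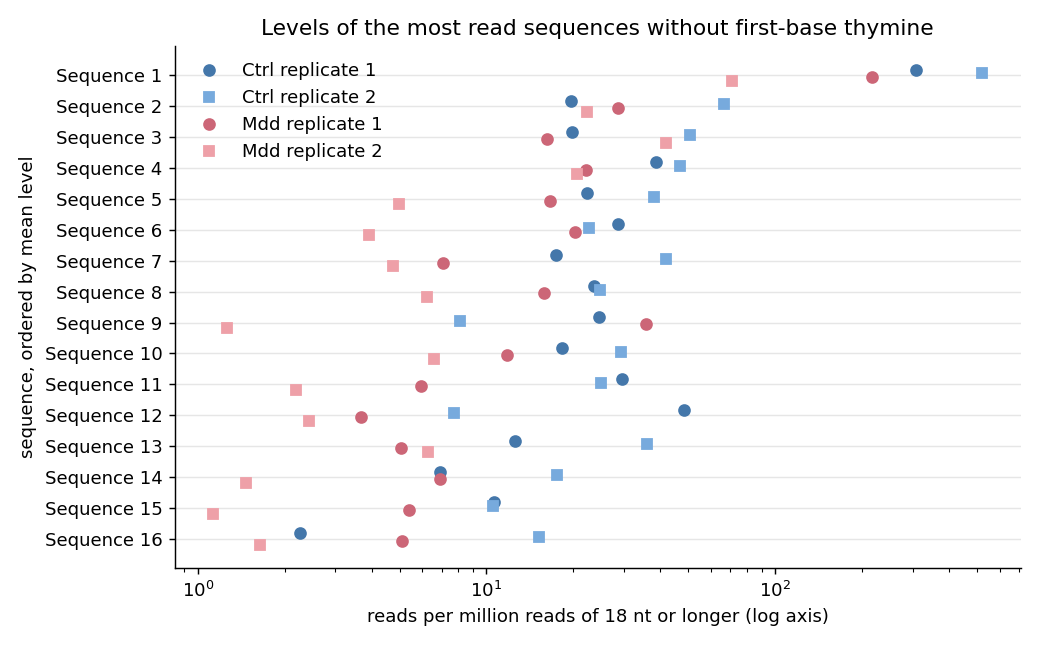
Levels of Sequences 1 to 16, named for their mean level or their match to a first-base-thymine sequence, in CPM on a log axis, 1 point per library. Sequence 1 is the highest in every library, from 71.1 to 520, and Mdd replicate 2 is the lowest library for most sequences.

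Across all annotated sequences no difference between Mdd and Ctrl passed the threshold in edgeR, which does not show that levels were alike. Of the 12903 sequences, 1094 had enough reads for the test, among 79093 tested in 1 fit. edgeR called 0 of them at an adjusted p of 0.05 (percent called over all tested 0%), and the lowest adjusted p was 0.182. The common dispersion, the squared coefficient of variation between replicates, was 2.10. At an unadjusted p under 0.05 it found 245 (22.4%), 17 higher and 228 lower in Mdd. Over all tested it found 13.2%, 993 higher and 9454 lower. Of T-first sequences it found 20.3%, 123 higher and 3655 lower, so the direction was shared. The filter worked on CPM, so sequences read in 1 group only could enter. The Ctrl libraries were smaller, so fewer reads were enough there. Sequences 22 to 26, described below, entered with 5 or 6 reads in Ctrl replicate 1, 9 to 11 in Ctrl replicate 2 and 0 in Mdd. The part of this filter in the excess of lower sequences was not tested. DESeq2 called 2, 1 in each direction, against 0.618% of the 34623 sequences to which it gave an adjusted p. Leaving out Mdd replicate 1 raised the edgeR count to 55 of 3362 (1.64%), 54 of them higher in the remaining Mdd library, against 1.48% of the 146831 tested, a share near that of all sequences. Leaving out Mdd replicate 2 gave 1 of 3617 (0.0276%), against 0.14% of the 143507 tested. Without Ctrl replicate 1 or Ctrl replicate 2 edgeR called 0 of 4096 and 0 of 2694, against 0.00948% and 0% of all tested. The lone Mdd library was assumed to vary like the Ctrl libraries. With 1 library left in a group, the filter let in sequences with enough reads in a single library. The sequences tested from this set therefore rose from 1094 to between 2694 and 4096. Without Mdd replicate 1, calls over all tested sequences were also mostly higher. A sequence read in the lone library alone has no replicate there, so these counts and their direction cannot show a group difference.

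Sequences whose groups did not overlap were more often lower than higher. Mdd was below Ctrl for 442 (40.4%), against 30.3% of all tested and 42.6% of T-first sequences. Mdd was above Ctrl for 42 (3.84%), against 7.84% of all tested and 3.36% of T-first sequences. These counts cover sequences that passed the filter, which those read only in Ctrl could pass with fewer reads. The median log2 fold change was -0.45, against -0.71 for T-first and -0.04 for all tested. With library size alone the medians were -0.77 here and -0.42 for all tested. Joined by their first 20 bases, 345 5′ ends were read in all 4 libraries, with a median log2 ratio of mean CPM of -0.71 and a range from -4.95 to 2.9999. Of these, 110 were lower in both Mdd libraries (31.9%), against 26.6% of the 20208 such 5′ ends of all annotated sequences and 36.0% of the 6174 T-first ones. The 9 that were higher (2.61%) compare with 9.0% and 2.87%.

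The sequences of lowest p were low and, counted as exact sequences, read in 1 group only. All 5 on the higher side had 0 reads in both Ctrl libraries, where 3 reads would be 0.309 and 0.179 CPM, less than the usual number of reads of a single sequence.
Sequence 17: CtcagaatgAagatacgcgatgccacggg
Sequence 18: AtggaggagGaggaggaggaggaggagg
Sequence 17 had 74 and 132 reads in Mdd, 3.12 and 5.54 CPM, and was called by DESeq2 (adjusted p = 0.0296) but not by edgeR (adjusted p = 0.252). Its T-first neighbour, starting 1 nt further in, had 0, 16, 69 and 1 reads. Sequence 18, a run of GGA repeats that matches the pseudogene Gm17031 and the other strand of Gm43154, had 91 and 76 reads in Mdd. Sequences 19 to 21 had between 12 and 85 reads in each Mdd library. On the lower side, Sequences 22 to 26 had 5 or 6 reads in Ctrl replicate 1, between 9 and 11 in Ctrl replicate 2 and 0 in Mdd, all at an edgeR adjusted p of 0.182. Sequence 22 is a 27 nt form of Sequence 2, which was read in every library. Joined with others of the same first 20 bases, Sequences 18 and 19 had 7 and 39 reads in Ctrl replicate 1. Sequence 20 had 6 in Ctrl replicate 2, Sequence 23 had 46 in Mdd replicate 1 and Sequence 24 had 25 in Mdd replicate 2. Sequences 17, 21, 25 and 26 stayed without reads in the other group. The other sequence that DESeq2 called was outside the rule for names and was picked after its values were seen.
Sequence called lower by DESeq2: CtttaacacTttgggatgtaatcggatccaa
It had 184, 149, 3 and 0 reads, 19.0, 8.89, 0.126 and 0 CPM, with a DESeq2 log2 fold change of -7.26 (SE 1.71, adjusted p = 0.0119), and edgeR gave it an adjusted p of 0.201.

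Few of the sequences shared letters with other annotated small RNAs. For 97.9% the first 20 bases were found inside no sequence with another annotation, while 180 (1.40%, between 0.859% and 1.57% of reads) were found only inside sequences with annotations other than tRNA, rRNA or miRNA, 33 only inside tRNA-labelled, 22 only inside rRNA-labelled and 5 only inside miRNA-labelled sequences. In reads, the rRNA-labelled matches were between 0.0177% and 0.0219% in 3 libraries and 1.19% in Mdd replicate 2.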

How the data were processed

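Small RNA from sperm was sequenced in 4 libraries, 2 Ctrl and 2 Mdd. The deposited files give, per the file headers, 1 row per distinct sequence of 15 to 45 nt with its raw read count, length, genome match and annotation. The submitters' processing notes name DESeq2 and the mm9 build, and the aligner and annotation database are not given there or in other sources used here. Tables were joined by sequence, and each sequence took the first annotation a library gave. The members and lists were chosen with earlier results of these data known.

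Shares were compared by exact two-sided permutation tests, 2 against 2, and within libraries by exact sign-flip tests over 4 libraries, with Benjamini-Hochberg adjustment. The counts of annotated sequences of 18 nt or longer were tested with edgeR 4.0.16 (quasi-likelihood, TMM, filterByExpr, R 4.3.3) as the main fit and DESeq2 1.42.0 as an alternative. The count fit and the overlap search were tested on simulated data. At the dispersion estimated from these libraries, the count fit missed the sequences that had been changed by a known fold. The edgeR and DESeq2 p-values rest on the spread of these samples alone, and that spread may be technical. The permutation p is at its floor of 0.333 whenever the groups do not overlap. The sign-flip p is at its floor of 0.125 whenever the 4 libraries agree in sign. Neither measures the size of the spread. A 95% Wilson interval of A at position 10 reached ± 0.450 percentage points over reads and ± 1.81 over distinct sequences. Intervals and the floor of 3 reads cover counting error only.

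Sites are exact matches to GENCODE M21 transcripts (GRCm38), because no genome sequence was used, so sites in introns or between genes are not analysed here. Names followed a rule: 1 sequence per shared first 20 bases within each part of the rule (Sequences 2 and 22 share theirs), taking the 12 of highest mean CPM and 3 per first base, the 5 of lowest p in each direction because fewer than 5 passed, and the 6 of highest mean CPM with a T-first 10-nt match or with a T-first neighbour within 5 nt. Alternatives were other weights, lengths, read minimums, annotation, scalings, filters, the replicate number as a block and each sample left out. Those without the most read sequence, with strong partners, by genome site and by neighbour were chosen after seeing the data. Tables were made in Python 3.11.15 with pandas 2.3.3 and scipy 1.17.1.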

Additional observations from a re-analysis of the deposited data

How the results depend on the processing

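The 10 shares and lengths kept their direction in 86 of 87 recomputations. The exception was first-base G, 2.12 points lower in Mdd by reads (a difference of -2.12) and 0.906 points higher with each distinct sequence counted once. The 10-nt overlap among those with A at position 10 was not one of the 10. Its Mdd minus Ctrl difference also turned, from -8.55 points by reads to 0.488 by distinct sequence. Over the whole set the overlap difference went from -4.61 to -0.138 points. With each sample left out in turn, the Mdd minus Ctrl differences ranged from -0.339 to -0.146 points for the share of reads, from -4.66 to -1.35 for A at position 10, from -7.58 to -1.64 for the 10-nt overlap over all reads of the set (-16.2 to -0.850 among those with A at position 10) and from -0.243 to -0.201 nt for mean length, the excess of A at position 10 over T-first from 13.1 to 14.7 points and that of the 10-nt overlap over other windows from 14.3 to 19.4 points. The count of sequences called was 0 in the main fit, 2 with DESeq2 and between 0 and 55 with each sample left out: 55 of 3362 without Mdd replicate 1 (1.64%, all tested 1.48%), 1 of 3617 without Mdd replicate 2 (0.0276%, all tested 0.14%) and 0 without either Ctrl library (15 and 0 of all tested). The fits with a sample left out let in sequences with enough reads in 1 library alone, so their counts cannot show a group difference. The count was 0 with RLE scaling, library size only, a minimum mean CPM of 1, no filter and all lengths. It was also 0 with piRNA-labelled sequences alone, annotation as deposited and sums over the first 20 bases. With the replicate number as a block it was also 0, among 14 calls over all tested. Deviations of same-numbered samples from their group mean had a correlation of 0.0391 over the 1094 sequences tested. With 2 samples per group this cannot show whether the number pairs them. Of the 26 named sequences, 4 changed the sign of their fold change under some alternative: Sequences 2, 3, 9 and 16. Of the 12903 sequences, 1139 had 1 read in all. The cause of the differences between libraries was not tested.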

Other observations

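Some other genes with at least 20 sequences, chosen after their values were seen, were as follows. The pseudogene Zfp389 had 9 of 31 sense sequences lacking first-base T (29.03%), with 24, 76, 51 and 0 reads. Ago2, which encodes the slicing Argonaute protein, had 26 such sequences and 243 T-first ones in sense, with 76, 170, 106 and 79 reads. Cbl, a ubiquitin ligase gene, had 36 and 314, with 111, 408, 219 and 67 reads. Nemp1, a nuclear envelope gene, had 28 and 326, with 47, 257, 47 and 159 reads. These reads are not scaled to the depth of each library, and none of these genes was tested as a sum.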
